A study of Gallus gallus with 77 samples.

Results

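The 1 hr comparison of the chick cochlear laser time course asked which transcription factor (TF) genes had changed 1 hr after a wound to the auditory sensory epithelium (SE). It consisted of the arrays whose titles name the cochlea, the laser and 1 hr, which were 17 of the 77 arrays of the series and came from 2 of its 8 biological replicates. The lesioned group was SE of White Leghorn chicks, taken in the weeks after hatching, freed from the underlying stroma with thermolysin, grown on fibronectin for several days and cut by linear wounds from a pulsed laser microbeam, with 1 hr of recovery. The control group was unlesioned SE of the same preparation, which had been kept beside the microscope stage during the lesioning and harvested at the same time. Each biological sample pooled several cultures, and the 2 amplified RNAs of a replicate were hybridised together repeatedly, in both dye orientations. The laser RNA of replicate 1 was labelled with Cy3 on 5 arrays and with Cy5 on 4, and that of replicate 2 with Cy3 on 4 arrays and with Cy5 on 4. The control RNA was in the other dye. The 17 arrays therefore stand for 2 biological replicates of the comparison of lesioned and unlesioned cultures, and nothing states that these came from separate hatches.

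The SE of the cochlea is a sheet of mechanosensory hair cells and of the supporting cells that surround them. Birds replace lost hair cells, because supporting cells can divide or change directly into new hair cells, and a mechanical wound in a cultured SE is closed by cells that migrate and later divide. In many epithelia the first genes to respond to a wound are immediate early genes, such as FOS, JUN and EGR1, which need no new protein for their transcription and are often induced briefly within the first hour. They are followed by genes of the stress, NF-kappa-B and interferon pathways. RNA of a whole culture holds RNA of cells at the wound edge and of cells away from it.

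The array carried 50 mer probes for human TF genes, spotted in duplicate, and was used across species. Of 1534 names on it, 27 were control oligonucleotides and 1507 were taken as genes, of which 1504 passed a minimum mean signal of 1000 at 1 or more of the 4 time points. A chicken gene with the same symbol or synonym was found in the RefSeq gene table for 815 of them. The median spot signal of the 17 arrays ranged from 1242 to 4151 (median 2885) and was 2.17 to 5.23 times the local background (median 2.78). The control oligonucleotides, which match no gene, reached 1.95 to 3.74 times background (median 2.39), and 377 of the 1504 genes lay above the highest of them. Duplicate spots of a gene correlated within an array with r between 0.505 and 0.819 (median 0.644 over 1502 genes, which are not independent), and differed by a median of 0.17 on the log2 scale. The 17 arrays carried 4 dates, called scan days here, which may not be the days of scanning. Both the last day (8 arrays) and the earlier days (9 arrays) held both replicates and both dye orientations. No single earlier day held both replicates, so day and replicate cannot be told apart among the earlier days.

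A ratio is given as log2 of laser over control, so that a positive value stands for more signal from the lesioned cultures. Ratios of Cy5 over Cy3 were multiplied by −1 where Cy3 carried the lesioned sample, then averaged within an orientation and over the 2 orientations of a replicate. The title digit and the names of the scanned images gave the same dye for the laser RNA on 17 of 17 arrays, and the deposited table of ratios was turned the same way on 17 of 17. The 2 orientations of a replicate ran in opposite directions across the 1504 genes once turned, with r = −0.64 in replicate 1 and −0.64 in replicate 2. Single arrays of opposite orientation correlated below 0 in 36 of 36 pairs within a replicate (median −0.25, with 14 pairs below −0.3), while arrays of the same orientation and replicate correlated at a median of 0.28 over 28 pairs. With no array turned, the Cy5 over Cy3 difference was larger in size than the laser difference in 78.1% of the 1504 genes. The cause of the opposite directions was not tested, and the direction of a single ratio is not settled by the arrays alone. The counts of agreeing and called genes, and the genes described most fully, are therefore also given as Cy5 over Cy3.

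**Figure D1:**
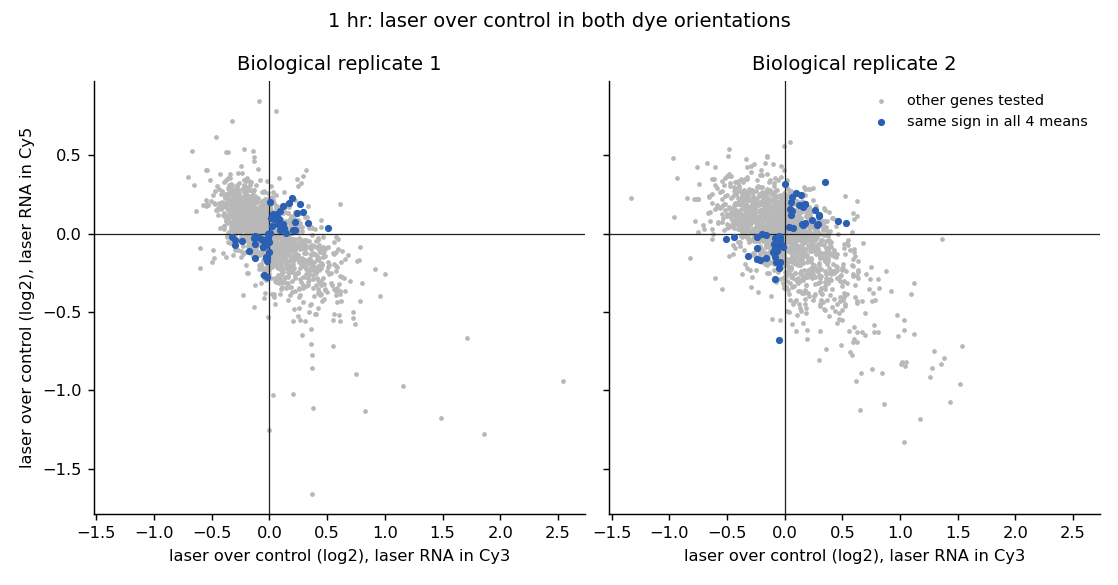
Laser over control (log2) of each of the 1504 genes, as the mean over arrays with lesioned RNA in Cy3 (horizontal axis) and over those with it in Cy5 (vertical axis), in both biological replicates. The cloud runs from the upper left to the lower right (r = −0.64 in both panels), and the 55 genes with the same sign in all 4 means (blue) lie near the centre.

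No gene passed an adjusted p under 0.05 with a change of over 1.2-fold at 1 hr (0% of 1504; limma with Benjamini-Hochberg adjustment, smallest adjusted p = 0.999). At an unadjusted p under 0.05 there were 40 genes (2.66%), 20 higher (1.33%) and 20 lower (1.33%) after the lesion, and 5 of the 1504 (0.332%) also exceeded 1.2-fold. The median size of the laser difference was 0.05 on the log2 scale, with a range of −0.27 to 0.50 over genes. The precision was limited by the 2 replicates: the median standard error was 0.09 and the median half-width of a 95% interval was 0.18, against 0.26 for a 1.2-fold change. The whole interval lay within 1.2-fold in either direction for 928 genes and within 2-fold for all 1504. These intervals describe ratios on the array and do not bound the change in RNA. The signal of 1127 genes lay at or below the brightest control oligonucleotide. The study also proposes that cross-species hybridisation may compress the range of its ratios. A one-sample t-test over all 17 arrays passed 48 genes at an unadjusted p under 0.05 and 1 after adjustment (ONECUT1). It is the kind of test in the methods of the study, which used hybridisations and genes that had passed filters. Which arrays those were is not known here. Such a test counts repeat arrays of the same RNA as samples.

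Few genes agreed across dyes and replicates. In 55 genes (3.66%), the turned ratio had the same sign in all 4 means of an orientation and replicate, 27 of them higher (1.8%) and 28 lower (1.86%) in the lesioned cultures. With no array turned, 643 genes (42.8%) had the same sign in all 4 means, 366 with more signal in Cy5 (24.3%) and 277 with more in Cy3 (18.4%). Among the 377 genes above every control oligonucleotide, 10 agreed after turning (2.65%) and 173 without it (45.9%). When orientations were averaged within a replicate, 778 genes had the same sign in both replicates (51.7%), and the turned values of the 2 replicates correlated with r = −0.01, against 0.56 as Cy5 over Cy3. The share of genes with the same sign in all 4 turned means was 8.38% at 30 min, 7.98% at 2 hr and 7.51% at 3 hr, and without turning it was 33.4%, 35% and 42.6%.

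**Figure D2:**
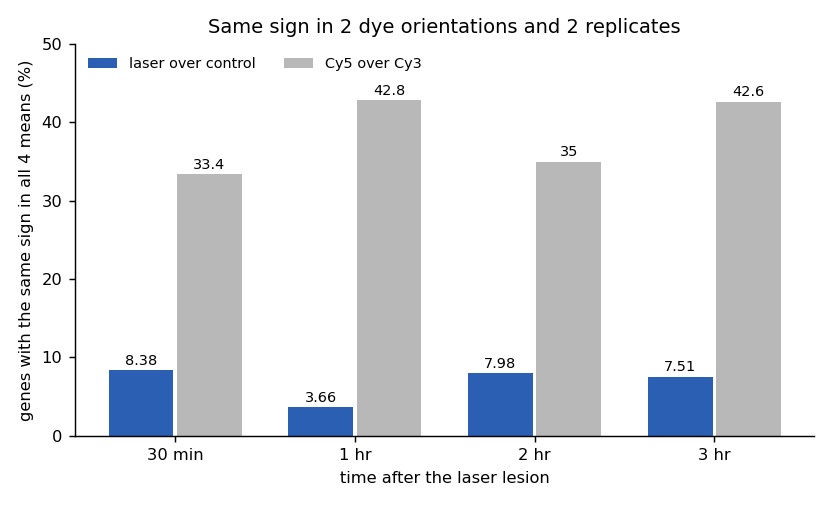
Percent of the 1504 genes with the same sign in all 4 means (2 dye orientations in 2 replicates) at each time point, as laser over control (blue) and with no array turned, as Cy5 over Cy3 (grey). The blue bar at 1 hr is 3.66%, the lowest of the 4, and the grey bar there is 42.8%.

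The 5 genes past the unadjusted threshold were IRF1, SOX14, ATBF1 and CDO, which were higher after the lesion, and SOX3, which was lower. CDO was named only because it was 1 of these 5, after its values were seen. The signal of IRF1 (3.07 times background), SOX14 (3.42) and SOX3 (2.14) lay below the brightest control oligonucleotide (3.74). That of ATBF1 (4.94) and CDO (3.98) lay above it. The 4 higher genes shared a pattern: a positive ratio in both replicates with the laser RNA in Cy3 and a negative ratio in both with the laser RNA in Cy5. Over the 40 genes with an unadjusted p under 0.05, the means of the 2 orientations had opposite signs in 27 and all 4 means agreed in 7.

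IRF1, an interferon-induced activator of defence genes, had the smallest p-value. Its ratio was 0.63 in replicate 1 and 1.12 in replicate 2 with the laser RNA in Cy3, and −0.11 and −0.32 when Cy5 carried it. Single arrays ran from −0.61 to 1.34 (median 0.20), and 11 of 17 lay above 0. All arrays with lesioned RNA in Cy3 were above 0, while those in Cy5 spread around and below it, so the groups of arrays split by dye. The difference was 0.33 ± 0.08, or 1.26-fold (limma, unadjusted p = 0.00163, adjusted p = 0.999), and the Cy5 over Cy3 difference was −0.54 ± 0.10 (adjusted p = 0.00892). Each value after ± is the standard error of a mean of 2 replicates, with the spread taken from the limma fit to the 8 replicates of the series.

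SOX14, a SoxB factor of the developing nervous system, had the largest estimate and the largest dye difference. Its ratio was 2.54 and 0.73 with the laser RNA in Cy3, and −0.94 and −0.35 in the opposite orientation, in replicates 1 and 2. Single arrays ran from −1.70 to 2.91, and 1 of 17 gave more signal in Cy5. The laser difference of 0.50 ± 0.15 was 0.80 in replicate 1 and 0.19 in replicate 2 (unadjusted p = 0.00469), beside a Cy5 over Cy3 difference of −1.14 ± 0.22 (adjusted p = 0.00913).

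ATBF1, a large homeodomain and zinc finger protein, had ratios of 0.59 and 1.36 with the laser RNA in Cy3, and of −0.44 and −0.03 with it in Cy5. Its laser difference was 0.37 ± 0.12 (unadjusted p = 0.00993), 0.07 in replicate 1 and 0.67 in replicate 2, and its Cy5 over Cy3 difference was −0.60 (adjusted p = 0.00373). CDO had ratios of 0.78 and 0.88 in Cy3 and of −0.09 and −0.24 in Cy5, and a laser difference of 0.33 (unadjusted p = 0.026), beside a Cy5 over Cy3 difference of −0.50 (adjusted p = 0.0438). Both thus followed the same split by dye as IRF1 and SOX14.

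SOX3, another SoxB factor with a role in neural and otic progenitors, had ratios of −0.36 and −0.71 with the laser RNA in Cy3, and of −0.06 and 0.06 with it in Cy5. One array of replicate 2 with the laser RNA in Cy3 lay at −2.67, the next lowest array at −0.70 and the highest at 0.33. The laser difference was −0.27 ± 0.08 (unadjusted p = 0.00491). It was −0.47 over the earlier scan days, which hold that array, and −0.04 on the last scan day. Its Cy5 over Cy3 difference was 0.27 (adjusted p = 0.167).

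**Figure D3:**
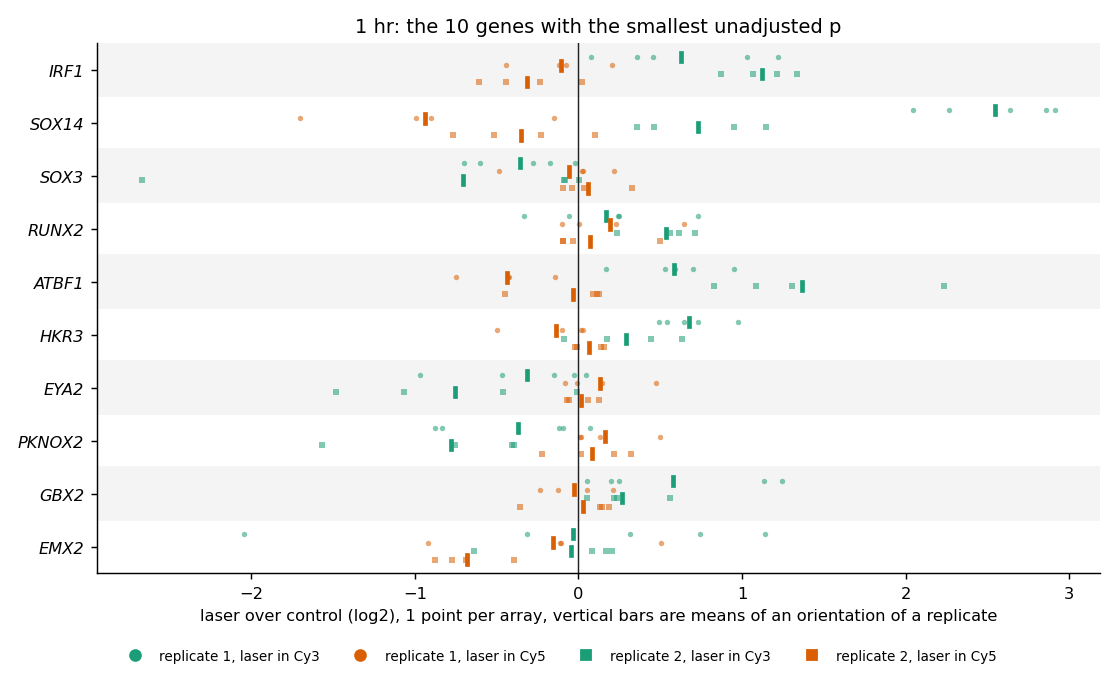
Laser over control (log2) on each of the 17 arrays for the 10 genes with the smallest unadjusted p, with points for arrays, bars for the 4 means, colour for the dye of the laser RNA and shape for the replicate. IRF1, SOX14 and ATBF1 lie to the right of 0 in green (Cy3) and mostly to the left in orange (Cy5), and RUNX2 and EMX2 alone have all 4 bars on 1 side.

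The other genes among the 10 with the smallest p-values were RUNX2, HKR3, EYA2, PKNOX2, GBX2 and EMX2. HKR3, a zinc finger protein that binds telomeres, was at 0.22 ± 0.08 (unadjusted p = 0.0128), and GBX2, a homeobox gene of the early hindbrain and ear, was at 0.21 ± 0.08 (unadjusted p = 0.0175) with 14 of 17 arrays above 0. Both had 3 of 4 means above 0, with the exception in replicate 1 with the laser RNA in Cy5. EYA2, a coactivator in placode development, was at −0.23 ± 0.08 (unadjusted p = 0.0151), and PKNOX2, a TALE homeodomain protein, at −0.23 ± 0.08 (unadjusted p = 0.017). Both were below 0 in Cy3 and above 0 in Cy5 in each replicate.

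RUNX2 and EMX2 were the 2 genes of these 10 whose 4 means agreed. RUNX2, the regulator of bone cell differentiation, had ratios of 0.17 and 0.53 with the laser RNA in Cy3 and of 0.19 and 0.07 with it in Cy5. Its laser difference was 0.24 ± 0.08 (unadjusted p = 0.00806) with 11 of 17 arrays above 0, at 0.09 over the earlier scan days and 0.42 on the last. EMX2, a homeobox gene that sets hair bundle orientation in mice and zebrafish, had ratios of −0.03 and −0.05 in Cy3 and of −0.16 and −0.68 in Cy5. Its laser difference was −0.23 ± 0.09 (unadjusted p = 0.018), while its arrays ran from −2.05 to 1.14 and 7 of 17 lay above 0. The difference was −0.35 over the earlier scan days and −0.03 on the last. On the last day replicate 1 was at 0.21 and replicate 2 at −0.27. As Cy5 over Cy3, RUNX2 was at −0.11 and EMX2 at −0.19, neither with an adjusted p under 0.05. Their signal was 2.71 and 3.55 times background, below the brightest control oligonucleotide.

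The 55 agreeing genes were chosen by their sign, so their differences are a description. Their estimates ran from −0.23 to 0.27 with a median size of 0.12, 1 of them exceeded 1.2-fold, and 7 had an unadjusted p under 0.05 (5 higher, 2 lower). None had a Cy5 over Cy3 difference with an adjusted p under 0.05. The same sign in both orientations keeps that difference smaller than the laser difference within each replicate. Its small size thus follows from the choice of genes and does not show that they are free of a dye effect. In 47 of the 55 the sign was the same over the earlier scan days and on the last. These are the arrays that chose the genes, so a shared sign is favoured by the choice and is no replication. The smallest of a gene's 4 means was over 0.1 in size in 3 genes (ONECUT1, LHX4 and ZNF266), and its median over the 55 was 0.03, against a median standard deviation of 0.30 between arrays of the same orientation and replicate. The Cy5 over Cy3 differences of the 16 genes plotted, kept small by the same choice, ran from −0.12 to 0.10 (smallest adjusted p = 0.491). ONECUT1 was at −0.04 and LHX4 at 0.04. The signal of ONECUT1 (3.19 times background) and LHX4 (3.33) lay below the brightest control oligonucleotide.

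ONECUT1, a cut homeodomain factor of liver and pancreas development, had the largest smallest mean of the higher agreeing genes. Its ratio was 0.29 and 0.16 with the laser RNA in Cy3, and 0.14 and 0.17 with it in Cy5, in replicates 1 and 2. Single arrays ran from −0.07 to 0.43 (median 0.19), 15 of 17 lay above 0, and their spread within an orientation and replicate was 0.14. The difference was 0.19 ± 0.08, or 1.14-fold (unadjusted p = 0.0329), and it was 0.24 over the earlier scan days and 0.15 on the last. At the other time points it was −0.08 (30 min), 0.08 (2 hr) and −0.01 (3 hr).

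LHX4, a LIM homeobox gene of pituitary and motor neuron development, had ratios of 0.11 and 0.14 in Cy3 and of 0.17 and 0.25 in Cy5. Its arrays ran from −0.45 to 0.56, with 14 of 17 above 0, and its difference was 0.17 ± 0.08 (unadjusted p = 0.0555). HOXB7, a gene of the Hox cluster, had ratios of 0.22 and 0.30 in Cy3 and of 0.07 and 0.11 in Cy5, with a difference of 0.18 ± 0.07 (unadjusted p = 0.0315). SSX5, which encodes a cancer-testis antigen, was at 0.19 ± 0.09 (unadjusted p = 0.0479), but its means were 0.33 and 0.29 in Cy3 and 0.07 and 0.06 in Cy5. In LHX4 the means in Cy5 exceeded those in Cy3 in both replicates, and in HOXB7 and SSX5 the order was the reverse. Besides RUNX2, the other higher genes with the largest smallest mean were MYT2, DDB1 and SUPT3H, with laser differences of 0.16, 0.12 and 0.12. DDB1 encodes an adaptor of a ubiquitin ligase in DNA damage repair, and SUPT3H a subunit of the SAGA coactivator.

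Of the lower agreeing genes, ZNF266, a zinc finger gene, had the largest smallest mean by size. Its ratios were −0.18 and −0.22 in Cy3 and −0.11 and −0.17 in Cy5, its arrays ran from −0.60 to 0.50 with 4 of 17 above 0, and its difference was −0.17 ± 0.08 (unadjusted p = 0.0642). Its signal was 1.78 times background, below every control oligonucleotide, as were those of HSU90653 (1.38), BHLHB3 (1.53) and ZNF282 (1.87). RNF2, the ubiquitin ligase of Polycomb repressive complex 1, was at −0.17 ± 0.07 (unadjusted p = 0.0402), with means of −0.30 and −0.24 in Cy3 and of −0.04 and −0.09 in Cy5. TFE3, a regulator of lysosomal genes, was at −0.14 ± 0.08, and its array farthest from 0 lay at −1.29 and the next at −0.47. FOXB1, a forkhead gene of the developing brain, was at −0.12, BHLHB3, a repressor in the circadian clock, at −0.12, HSU90653 at −0.11, the ETS repressor ERF at −0.07 and ZNF282 at −0.04. Each of the last 5 had arrays on both sides of 0, and ERF had 9 of 17 arrays above 0.

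**Figure D4:**
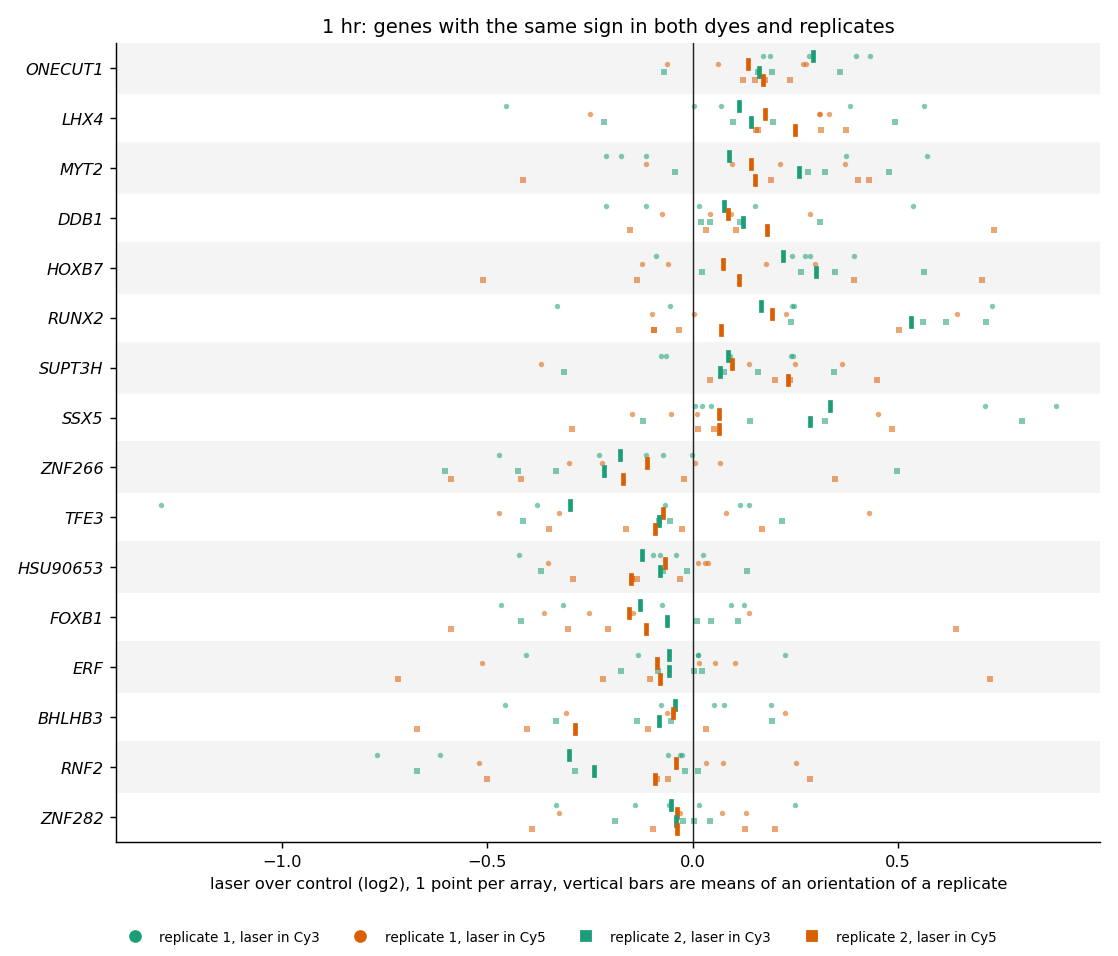
Laser over control (log2) on each array for the 8 higher and the 8 lower genes whose smallest mean was largest among the 55 that agreed, with points for arrays, bars for the 4 means, colour for the dye of the laser RNA and shape for the replicate. The bars of a gene lie on 1 side of 0 by construction, and every gene shown has arrays on both sides.

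A stricter reading of single arrays left few genes. The same sign on at least 14 of 17 arrays (80%, the trend used in the methods of the study) was found in 9 genes (0.598%), and in 342 with no array turned (22.7%). Of the 9, ONECUT1, LHX4, NFIL3 and KCNN2 also agreed in all 4 means, and KCNN2 was the only 1 with a mean over 1.2-fold (0.0665%). The other 5 were GBX2, R28830_2 and SFRS8, which were higher, and ZNF273 and FLJ13659, which were lower. When the earlier and last scan days were kept apart, the same sign in 8 of 8 means was found in 2 genes (0.133%), KCNN2 and AY044845, against 192 with no array turned (12.8%).

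KCNN2, a small-conductance calcium-activated potassium channel that carries the efferent inhibition of hair cells, was chosen after its values were seen. Its ratio was 0.51 and 0.46 with the laser RNA in Cy3, and 0.04 and 0.08 with it in Cy5. The difference was 0.27 ± 0.14 (unadjusted p = 0.0826), with 0.27 in replicate 1 and 0.27 in replicate 2, and 15 of 17 arrays lay above 0. Its Cy5 over Cy3 difference was −0.21 (adjusted p = 0.318). The laser difference was −0.56 at 30 min, 0.14 at 2 hr and −0.38 at 3 hr. AY044845 was at 0.14 with 13 of 17 arrays above 0, and it was −0.27 at 30 min, 0.24 at 2 hr and 0.01 at 3 hr.

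The 5 genes that the study's text and tables name at 1 hr in this time course were chosen on these arrays. Their values on the arrays are thus no independent evidence of a direction. The study also assayed NFIL3 and IRLB at 1 hr by quantitative PCR in new biological samples, with results that are not reported here. NFIL3, a basic leucine zipper repressor that acts in the circadian clock and in immune cells, agreed in all 4 means. Its ratios were 0.20 and 0.35 in Cy3, and 0.02 and 0.33 in Cy5, with arrays from −0.07 to 0.80 and 14 of 17 above 0. The difference was 0.23 ± 0.09, or 1.17-fold (unadjusted p = 0.0215, adjusted p = 0.999), and the Cy5 over Cy3 difference was −0.05. The laser difference was 0.35 at 30 min, −0.16 at 2 hr and 0.12 at 3 hr. At 1 hr it was 0.09 over the earlier scan days and 0.38 on the last. The signal of NFIL3 was 2.71 times background, below the brightest control oligonucleotide. MYT2 agreed as well, at 0.16 ± 0.10 (unadjusted p = 0.124), with 11 of 17 arrays above 0.

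The other 3 split by dye. IRLB, a protein that binds the MYC promoter, had ratios of 0.42 and 0.68 in Cy3 and of −0.35 and −0.06 in Cy5, with a difference of 0.17 ± 0.08 (unadjusted p = 0.0599). NR1H3, the oxysterol receptor LXR alpha, had ratios of 0.31 and 0.50 in Cy3 and of −0.20 and −0.22 in Cy5, with a difference of 0.10 ± 0.08. MAPK8IP1, a scaffold of the JNK cascade, had ratios of 0.02 and 0.30 in Cy3 and of −0.19 and −0.31 in Cy5, with a difference of −0.04 ± 0.10. For IRLB the Cy5 over Cy3 difference was −0.38 (adjusted p = 0.0438), larger than its laser difference.

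Among 36 immediate early and AP-1 genes, 2 were higher (JUN and NFIL3) and none lower at an unadjusted p under 0.05 (5.56%, against 2.66% of all genes), and their median was 0.005, against −0.01 for all genes. EGR1 and NFIL3 agreed in all 4 means (5.56% of the list, against 3.66% of all genes), EGR1 below 0 and NFIL3 above it. As Cy5 over Cy3, 11 of the 36 had the same sign in all 4 means (30.6%, against 42.8% of all genes). JUN, the AP-1 subunit, had ratios of 0.40 and 0.59 with the laser RNA in Cy3 and of −0.08 and −0.16 with it in Cy5, for a difference of 0.19 ± 0.08 (unadjusted p = 0.0376), and 2 of 17 arrays gave more signal in Cy5. FOS, its partner, was at −0.04 ± 0.09 with 6 of 17 arrays above 0. FOS was −0.05 in replicate 1 and −0.02 in replicate 2, and its 95% interval ran from −0.24 to 0.16.

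EGR1, a zinc finger factor induced by growth factors and injury, was at −0.09 ± 0.13 at 1 hr, with means of −0.07, −0.03, −0.05 and −0.22. At 30 min it was at 0.70 (unadjusted p = 9.11e-05), in replicates that share no RNA with those at 1 hr. For EGR1, 1 hr minus the average over the other time points was −0.34 (unadjusted p = 0.0383, adjusted p = 0.981). ATF3, a stress-induced factor, was at 0.05 ± 0.08, NR4A1, an immediate early nuclear receptor, at −0.04 ± 0.08, and MYC, a driver of cell growth, at 0.16 ± 0.09 (unadjusted p = 0.0805). MYC was above 0 in 3 of 4 means, and ATF3 and NR4A1 differed from 0 by less than their standard error.

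**Figure D5:**
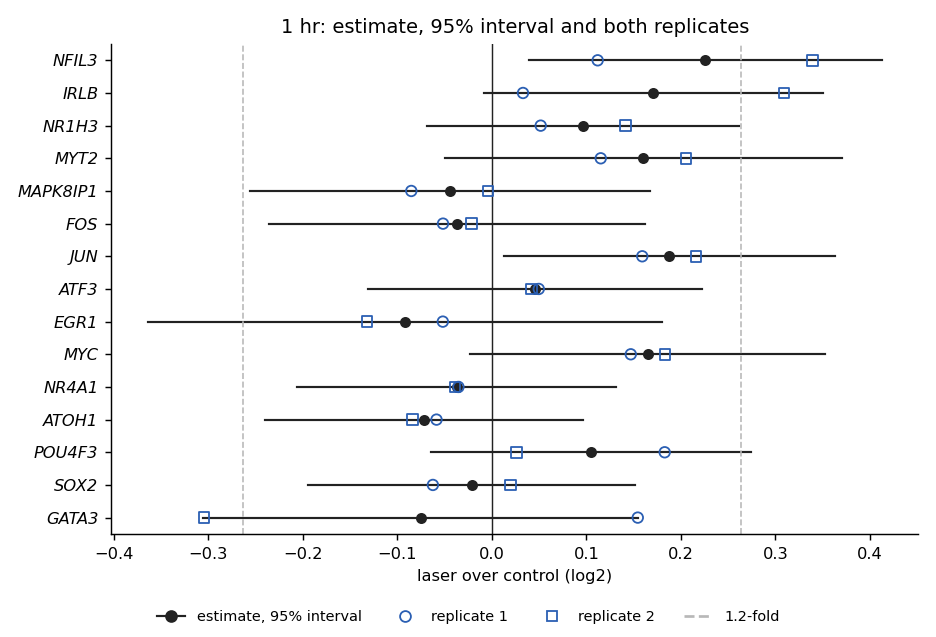
Laser over control (log2) at 1 hr for the 5 genes named by the study, 6 immediate early genes and 4 SE markers, as the estimate of the fit (filled circle) with its 95% interval (line) and both replicate values (open symbols). Only the intervals of NFIL3 and JUN leave out 0, before any adjustment over the 1504 genes, and dashed lines mark 1.2-fold.

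Of 27 NF-kappa-B, IRF and STAT genes, 2 had an unadjusted p under 0.05 (7.41%, against 2.66% of all genes): IRF1 was higher and IRF2, its antagonist, was lower (−0.21, unadjusted p = 0.0193), and ICSBP1 alone agreed in all 4 means, at −0.05 (3.7% of the list, against 3.66%). As Cy5 over Cy3, 11 of the 27 agreed (40.7%, against 42.8%). IRF2 had the dye split of IRF1: its ratios were 0.04 and 0.66 in Cy3 and −0.40 and −1.12 in Cy5. The members of NF-kappa-B itself, NFKB1, NFKB2, RELA, RELB and REL, lay between −0.11 and 0.05. STAT3, which acts downstream of cytokines, had a 95% interval of −0.18 to 0.18. Of 17 stress and hypoxia genes, none had an unadjusted p under 0.05 (0%, against 2.66% of all genes). The highest was HIF1A, the hypoxia factor (0.14), and the lowest NFE2L1, a regulator of proteasome and oxidative stress genes (−0.19). HSF2, a heat shock factor, agreed in all 4 means at −0.11 (5.88% of the list, against 3.66%), and 4 of the 17 agreed as Cy5 over Cy3 (23.5%, against 42.8%).

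No gene of 7 Notch, 10 WNT and 19 TGF-beta genes had an unadjusted p under 0.05 (0%, against 2.66% of all genes). The medians of these developmental pathways were 0.08, −0.01 and −0.02. The highest Notch gene was HES7 (0.18) and the lowest WNT gene LEF1 (−0.15). PPARD, a nuclear receptor and WNT target, was the only gene of these lists that agreed, at 0.12 (10% of the WNT list, against 3.66% of all genes). As Cy5 over Cy3, 4 Notch, 2 WNT and 9 TGF-beta genes agreed (57.1%, 20% and 47.4%, against 42.8% of all genes). TIEG, a TGF-beta-induced Krüppel-like factor, had the lowest estimate (−0.23), but it was −0.63 in replicate 1 and 0.16 in replicate 2, and its mean with the laser RNA of replicate 1 in Cy5 was −1.25. Of 23 genes of the PAX, EYA and sine oculis families, which act in the ear placode, PAX9 was higher (0.18, unadjusted p = 0.0381) and EYA2 lower, and EYA1 agreed in all 4 means at −0.09 with 4 of 17 arrays above 0. The called genes were 8.7% of the list, against 2.66% of all genes, and the agreeing gene 4.35%, against 3.66%, while 14 of the 23 agreed as Cy5 over Cy3 (60.9%, against 42.8%).

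Among 31 cell cycle and apoptosis genes, none had an unadjusted p under 0.05 (0%, against 2.66% of all genes). Their range was −0.14 (MYBL1) to 0.16 (MYC) and the median −0.01. The 3 that agreed in all 4 means were all higher: MYCN, a MYC family member (0.13), TRIP15, a subunit of the COP9 signalosome (0.10), and TFDP1, the dimer partner of E2F (0.06). They made up 9.68% of the list, against 3.66% of all genes, while 13 of the 31 agreed as Cy5 over Cy3 (41.9%, against 42.8%). MYCN and TRIP15 had 13 of 17 arrays above 0 each, and TFDP1 had 10. The smallest of the 4 means was 0.0017 for MYCN, 0.045 for TRIP15 and 0.00051 for TFDP1. The median standard deviation between arrays of the same orientation and replicate was 0.30 over all genes.

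Markers of the cells of the SE gave no gene with an unadjusted p under 0.05 (0%, against 2.66% of all genes). In RNA of a whole culture, fewer cells of a type and less RNA per cell cannot be told apart. Of 5 hair cell markers tested, the median was 0.01 and the range −0.07 (ATOH1) to 0.10 (POU4F3). ATOH1, which commits cells to the hair cell fate, had means of −0.18 and −0.13 in Cy3 and of 0.07 and −0.04 in Cy5. POU4F3, which hair cells need to survive, had means of 0.58 and 0.48 in Cy3 and of −0.22 and −0.43 in Cy5, and gave more signal in Cy3 on 17 of 17 arrays. Its laser difference was 0.10 ± 0.08, against a Cy5 over Cy3 difference of −0.43 ± 0.09 (adjusted p = 0.0122).

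Of 10 supporting cell and prosensory markers the median was −0.02 and the range −0.18 (DLX5) to 0.16 (PROX1). SOX2, the prosensory factor that supporting cells keep, was at −0.02 ± 0.08, with −0.06 in replicate 1 and 0.02 in replicate 2. GATA3, a zinc finger gene of the inner ear, was at −0.08 ± 0.11, with 0.15 in replicate 1 and −0.30 in replicate 2. The replicates of SOX2 and GATA3 thus lay on opposite sides of 0. EYA1, also on this list, was its only member that agreed in all 4 means (10%, against 3.66% of all genes). Among hair cell markers, 4 of 5 agreed as Cy5 over Cy3 (80%, against 42.8% of all genes). Of the 10 supporting cell and prosensory markers, 6 did so (60%). Signal over background of the 10 ran from 2.09 to 5.11, and that of the hair cell markers from 2.16 to 4.61 (medians 2.76 and 2.94), against 1.95 to 3.74 for the control oligonucleotides.

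Markers of other cells that a culture could hold were counted in the same way. Of 12 mesenchyme and muscle markers and 8 neuron and glia markers, none had an unadjusted p under 0.05 (0%, against 2.66% of all genes). Their medians were 0.04 and −0.01. Of 6 blood cell markers, LYL1 was lower (−0.19, unadjusted p = 0.0492) and the median was −0.01. LYL1 was 1 of 6 called (16.7%, against 2.66% of all genes). MEOX2 agreed in all 4 means at −0.06 (8.33% of the mesenchyme and muscle list) and PMX2B at −0.03 (12.5% of the neuron and glia list), against 3.66% of all genes. As Cy5 over Cy3, 4, 3 and 1 genes of these 3 lists agreed (33.3%, 37.5% and 16.7%, against 42.8% of all genes). Signal over background ran from 1.86 to 6.80, 1.26 to 8.68 and 1.86 to 3.16 in these 3 lists. Their part in any difference was not tested.

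The difference between dyes was the larger signal on these arrays. As Cy5 over Cy3, 103 genes (6.85%) passed an adjusted p under 0.05 and 1.2-fold in limma, 28 with more signal in Cy5 (1.86%) and 75 with more in Cy3 (4.99%), and the smallest adjusted p was 0.00102. Its median size was 0.13, and it exceeded the laser difference in 1174 of 1504 genes (78.1%). The genes farthest toward Cy3 were SOX14 (−1.14), GTF2F1, a subunit of the general factor TFIIF (−0.96), GPA33, an antigen of intestinal epithelium (−0.93), and PAF65A, a subunit of the PCAF complex (−0.89). GTF2F1 and GPA33 gave more signal in Cy3 on 17 of 17 arrays, and their laser differences were −0.19 and 0.02.

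Genes far toward Cy5 were FLJ11186 (0.57), TBCA, a tubulin folding cofactor (0.48), and ID1, an inhibitor of basic helix-loop-helix factors (0.46). FLJ11186 and ID1 were bright spots, at 35.7 and 25.4 times background. The Cy5 over Cy3 differences at 1 hr correlated with the mean of those at the other time points with r = 0.75 across 1504 genes, whose arrays share the probes and the dyes. Of the 103 genes, 9 also had an unadjusted p under 0.05 for laser over control, a larger share than the 40 of all 1504 genes (2.66%).

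The values at 1 hr were compared with those at the other time points, whose replicates share no RNA or controls with them. In the contrast of 1 hr with their mean, no gene had an adjusted p under 0.05 (0%; limma, smallest adjusted p = 0.981), and 66 had an unadjusted p under 0.05 (4.39%). The largest of the named genes was SOX14, at 0.72 (unadjusted p = 0.000893), and RUNX2 was at 0.30 (unadjusted p = 0.00467). Of the 55 agreeing genes, 16 had the same sign at 30 min (29.1%, against 41.8% of all genes), 32 at 2 hr (58.2%, against 55.8%) and 28 at 3 hr (50.9%, against 44.8%). Of the 27 that were higher at 1 hr, 4 were higher at 30 min (14.8%, against 48.3% of all genes), 15 at 2 hr (55.6%, against 45.1%) and 16 at 3 hr (59.3%, against 49.7%), and their median at 30 min was −0.11, against −0.0043 for all genes. Of the 28 that were lower at 1 hr, 12 were lower at 30 min (42.9%), 17 at 2 hr (60.7%) and 12 at 3 hr (42.9%). The share of these 28 that was higher at these times was 57.1%, 39.3% and 57.1%, against 48.3%, 45.1% and 49.7% of all genes.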

How the data were processed

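RNA from lesioned and unlesioned cultures was amplified, labelled with Cy3 or Cy5 and hybridised in pairs. The authors scanned each array and deposited, per spot, signal and local background intensity of both channels from ImaGene, not normalised. The authors also deposited a table of log2 ratios per spot, used as an alternative. Set against the scanner values, it was log2 of laser over control of the raw mean signals on 17 of 17 arrays (r = 1), with medians from −0.86 to 0.84 and thus not centred. The main values were computed from the intensity means: normexp background correction (offset 50), loess within each array with weight 0 for the 27 control names, and the mean of a gene's spots. Genes with a mean signal under 1000 at all 4 time points were left out (3 genes). The sign was turned where the laser RNA was in Cy3, arrays were averaged within an orientation and orientations within a replicate. limma 3.58.1 (R 4.3.3) was fitted to the 8 replicates of the series with a mean per time point, and p-values were adjusted by Benjamini-Hochberg over 1504 genes. Pooling the spread over time points assumes that it is alike in each. Nothing states that the replicates came from separate hatches, so the p-values measure the spread between these samples. Calls were an adjusted or an unadjusted p under 0.05 with a change over 1.2-fold. The averaging, the fit and the calls were tested on simulated log2 ratios, in which the dye difference of a gene was the same on all arrays. Background correction, loess and a dye difference that varies between replicates were not part of that simulation. The number of arrays and replicates limits the precision.

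Genes named in the text were the 8 higher and 8 lower agreeing genes with the largest smallest mean, the 10 with the smallest p, those that the study names at 1 hr, the 4 with the largest dye difference in each direction (1 of them is not reported here), 6 immediate early genes and 4 markers. Of 45 genes so named, 14 had a signal above every control oligonucleotide. The members and lists were chosen with earlier results of these data known. The alternatives changed background correction, normalisation, signal filter, fold threshold, averaging, dye orientation, scan day, replicate and test. Replicate numbers were shared between time points, but same-numbered replicates deviated with r between −0.25 and 0.17, and the numbers were not taken as pairs. Probe sequences and genome positions were not used here.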

Additional observations from a re-analysis of the deposited data

Results flagged for a closer look

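For each named gene, orientation and replicate (4 or 5 arrays), the array farthest from the rest was judged by Dixon's criterion. Chance gives about 1 in 20 for independent sets. The sets here share arrays, and many genes were chosen by values on them, so their share has no such yardstick. In 15 of 180 sets (8.33%), the array farthest from the rest stood apart. With the laser RNA of replicate 1 in Cy3, these arrays were at −0.42 for HSU90653 and at 0.89 for NR1H3. With it in Cy5, they were at −0.25 for LHX4, −0.35 for HSU90653, −0.51 for ERF and −0.29 for FOS. With the laser RNA of replicate 2 in Cy3, they were at −2.67 for SOX3, −0.64 for EMX2 and 1.07 for MAPK8IP1. With it in Cy5, they were at 0.50 for RUNX2, −0.45 for ATBF1, −0.36 for GBX2, −1.18 for PAF65A, 0.91 for MYC and 0.42 for SOX2. One array of replicate 1 with the laser RNA in Cy3 stood apart by its median signal over background, at 3.24. Of these genes, SOX3, RUNX2, ATBF1, GBX2 and EMX2 are among the 10 with the smallest p, and LHX4, RUNX2, HSU90653 and ERF among the 16 agreeing genes described.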

How the results depend on the processing

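The count of genes past the adjusted threshold for laser over control stayed at 0 under 20 of 24 alternatives. It was 1 with plain background subtraction (ZNF237, −0.60), 22 with the laser RNA in Cy3 alone, 5 with it in Cy5 alone and 6 within a scan day of replicate 2 alone, where 1 hr differed from the other time points in 8 genes. The count at an unadjusted p with 1.2-fold, 5 in the report, was 26 with plain background subtraction, 2 with no background correction, 9 with scaling between arrays, 1 with the authors' log2 ratios, 337 with Cy3 alone, 143 with Cy5 alone, 3 with the methods' t-test, 40 with no fold threshold, 0 with a 1.5-fold threshold, 38 and 222 within a scan day of replicate 1 or of replicate 2 alone, 48 on the last scan day and 31 over the earlier scan days (an alternative chosen after seeing the data). The genes with the same sign in all 4 means were 4 with the authors' log2 ratios (BRD3, EPAS1, TBX1 and ZNF175), against 55. The Cy5 over Cy3 calls, 103 in the report, were 2 with plain background subtraction, 24 with no background correction, 341 with median centring, 203 with scaling between arrays, 49 with signal medians, 62 with the authors' ratios, 163 with the 1 hr replicates alone in the fit, 260 with arrays as units, 24 with a 1.5-fold threshold, 25 within a scan day of replicate 1 alone, 286 on the last scan day and 34 over the earlier days. The split of these calls into more Cy5 and more Cy3, 28 and 75 in the report, was 130 and 211 with median centring, 73 and 130 with scaling, 3 and 46 with signal medians and 0 and 62 with the authors' ratios. The cause of these shifts was not tested.

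Leaving out a replicate, like the scan days of replicate 1 or 2 alone, leaves 1 sample at 1 hr, which is assumed to vary like the other time points. The day of replicate 2 alone with both orientations held the laser RNA in Cy3 on a single array. Its counts rest in part on that array. Without a replicate the adjusted laser count was 0 each time, the unadjusted count ranged from 19 (without replicate 2) to 39 (without replicate 1) and the dye count from 11 to 52. With a replicate block the counts were 0, 5 and 110.

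Of 985 values over 45 named genes and 22 alternatives, 915 kept their sign, 51 changed it with no call on either side and 19 reversed. The reversals with the laser RNA in Cy3 alone were ID1 (−0.41) and GTF2F1 (0.77). With it in Cy5 alone they were IRF1 (−0.21), SOX14 (−0.65), SOX3 (0.0010), ATBF1 (−0.23), HKR3 (−0.037), EYA2 (0.072), PKNOX2 (0.12), TBCA (0.38), GPA33 (−0.91), PAF65A (−0.81), JUN (−0.12) and POU4F3 (−0.32). Within a scan day of replicate 1 alone they were RNF2 (0.062), PKNOX2 (0.012), FLJ11186 (0.79) and GPA33 (−0.35), and within one of replicate 2 alone SOX14 (−0.091). Of the 1504 genes, 1127 lay at or below the brightest control oligonucleotide, and 3.99% of these agreed in all 4 means, against 2.65% of the 377 above it.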
